A study of Vitis vinifera with 45 samples.

Results

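Transcripts of 8 genes of the proanthocyanidin branch were followed in the berry skin of grapevine (Vitis vinifera), 3 enzymes and 5 MYB regulators. They were chosen by identifier as 8 of the 29958 transcripts measured. The enzymes were anthocyanidin reductase (ANR, VIT_00s0361g00040) and the leucoanthocyanidin reductases LAR1 (VIT_01s0011g02960) and LAR2 (VIT_17s0000g04150). The regulators were MYBPA1 (VIT_15s0046g00170), MYBPA2 (VIT_11s0016g01310), MYBPAR (VIT_11s0016g01300), MYB5a (VIT_08s0007g07230) and MYB5b (VIT_06s0004g00570). All 8 reached 10 counts in 3 or more of the 45 libraries.

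The scion of every library was Crimson Seedless (CS), a red seedless table grape. It was grafted onto the commercial rootstocks 101-14 (CS/101-14), 110R (CS/110R) and SO4 (CS/SO4), together called the heterografts, or onto its own rootstock (CS/CS), or was left graft-free (CS). Skins were taken at DAF45, DAF75 and DAF105, stages that the labels number by days after flowering (DAF), and gave 3 libraries for each of the 15 combinations of graft type and stage. The study calls the replicates biological, but which vines made up each is not given, so p-values measure the spread between these samples, which may be technical. The sample titles call the CS/CS berries Crimson and the CS berries Crimson Seedless, and which of these names stands for the self-graft rests on a note under a supplementary table of the study.

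Proanthocyanidins, or condensed tannins, are polymers of flavan-3-ols that give grape skins and seeds their astringency. LAR turns leucoanthocyanidins into catechin, and ANR turns anthocyanidins, the precursors that are otherwise glycosylated to the red anthocyanins, into epicatechin. R2R3-MYB proteins switch these enzymes on, and in grape skins the branch is known to be active before the onset of ripening and to decline as berries colour.

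Levels are given as TPM, a scale per transcript length and per library total on which genes can be compared with each other. The total count of a library was between 16387231 and 20765312. Counts were tested with edgeR's quasi-likelihood test. A difference was called at a log2 fold change beyond 1 in either direction with an adjusted p (Benjamini-Hochberg, over all transcripts tested) up to 0.05. Log2 fold changes are given with approximate standard errors. These were derived from the test, as the absolute log2 fold change over the square root of its F statistic. The tissue is a mixture of cells, so fewer cells of a type and less RNA per cell cannot be told apart. The heterografted berries were described by the study as colouring earlier than those of CS and CS/CS, so at 1 sampling day a graft effect and a difference in ripening cannot be told apart. The study also described CS/CS berries, but not those of CS, as turning red at DAF75, and CS/CS as the darkest at DAF105. The same limit therefore holds for CS/CS against CS.

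ANR, the enzyme of the epicatechin branch, was high in 1 of the 15 groups. At DAF45, its level was 248, 176 and 274 TPM in the CS/CS libraries, against 7.01, 6.75 and 6.39 TPM in CS. The lowest CS/CS library was far above the highest of the other 12 libraries of that stage, which lay between 4.99 and 9.72 TPM. ANR was higher in CS/CS than in CS (log2 fold change 4.93 ± 0.17, a 30.6-fold difference, adjusted p = 0.000125) and higher than in the heterografts (4.96 ± 0.16, adjusted p = 2.97e-09). By mean TPM, ANR ranked 757 among all transcripts in CS/CS, against 11870 in CS.

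**Figure D1:**
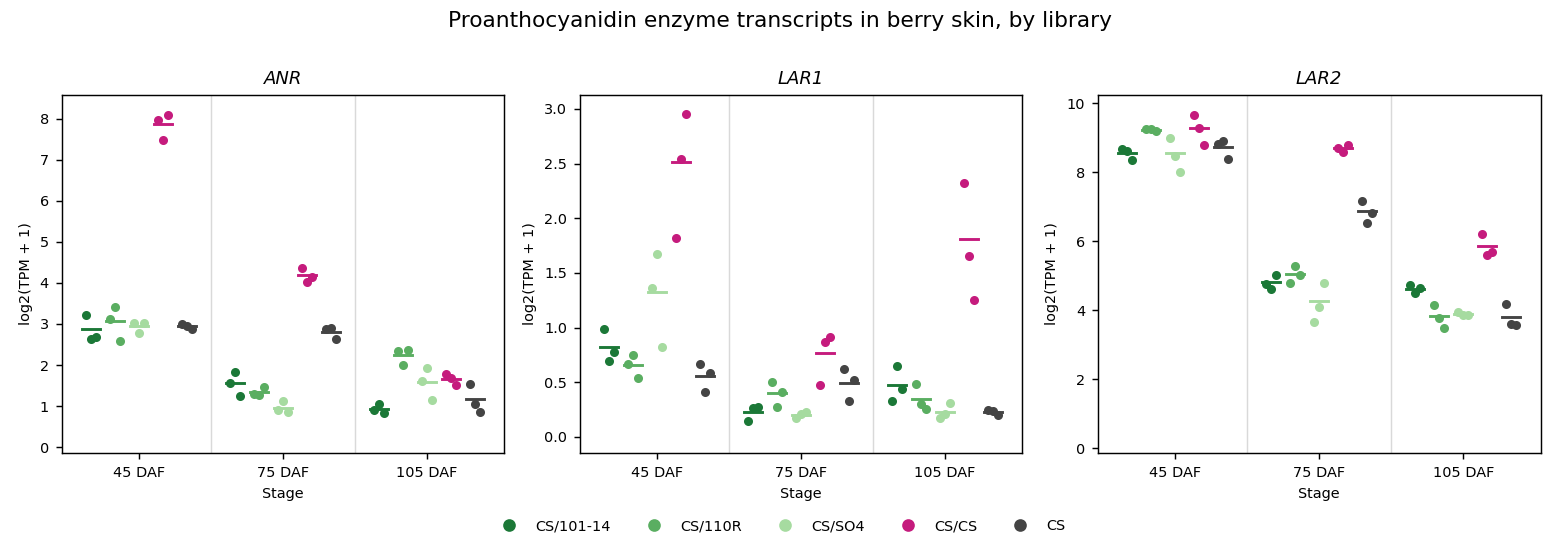
Levels of ANR, LAR1 and LAR2 as log2(TPM + 1), by stage and graft type; each point is 1 library and each bar is the mean TPM of 3 libraries on the same scale. At DAF45 the CS/CS libraries hold 176 to 274 TPM of ANR, above all other libraries, whereas LAR2 is high in every graft type at that stage.

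At DAF75, ANR was low in the heterografts and highest in CS/CS. Its level was 1.97, 2.58 and 1.37 TPM in CS/101-14, 1.45, 1.41 and 1.75 TPM in CS/110R, and 0.858, 1.19 and 0.799 TPM in CS/SO4, against 6.33, 6.46 and 5.22 TPM in CS. The CS/CS libraries held 19.5, 15.2 and 16.8 TPM. No library of the heterografts overlapped with CS, and none of CS overlapped with CS/CS. ANR was lower than in CS in CS/101-14 (log2 fold change -1.44 ± 0.24, adjusted p = 0.00108), CS/110R (-1.72 ± 0.19, adjusted p = 0.000147) and CS/SO4 (-2.49 ± 0.23, adjusted p = 0.000101), and higher in CS/CS (1.503 ± 0.14, adjusted p = 0.00149).

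At DAF105, ANR was low throughout. The level was 4.06, 2.99 and 4.14 TPM in CS/110R, against 1.90, 1.08 and 0.815 TPM in CS, and the groups did not overlap. ANR was called higher in CS/110R (log2 fold change 1.44 ± 0.33, adjusted p = 0.0245). That call was lost when CS replicate 2 or 3 or CS/110R replicate 1 or 3 was left out (log2 fold change between 1.20 and 1.39, adjusted p between 0.0678 and 0.0914). In the other grafted types ANR was between 0.772 and 2.78 TPM, and none was called against CS.

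The course of ANR over the stages differed between graft types. In CS/CS, the mean was 232 ± 50.5, 17.2 ± 2.18 and 2.17 ± 0.284 TPM at DAF45, DAF75 and DAF105 (SD, n = 3), and both steps were called lower (log2 fold changes -3.75 ± 0.17 and -2.66 ± 0.17, adjusted p = 0.000585 and 0.000102). In CS, the means were 6.72 ± 0.308, 6.002 ± 0.679 and 1.27 ± 0.568 TPM, and only the second step was called (-1.81 ± 0.31, adjusted p = 0.00111). In the heterografts, ANR was lower at DAF75 than at DAF45 in all 3 (log2 fold change between -2.78 and -1.68). It was then higher at DAF105 than at DAF75 in CS/110R (1.36 ± 0.23, adjusted p = 0.00174) and CS/SO4 (1.30 ± 0.36, adjusted p = 0.0164). The call in CS/SO4 was lost without its DAF75 replicate 3 (1.15, adjusted p = 0.0502) or its DAF105 replicate 2 (0.998, adjusted p = 0.0626). In CS/101-14 the second step was not called (-0.92 ± 0.33, adjusted p = 0.0655).

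LAR2, a leucoanthocyanidin reductase of the catechin branch, was the most abundant of the 3 enzymes in each of the 45 libraries. At DAF45, it had 409, 393 and 324 TPM in CS/101-14, 609.7, 609.5 and 588 TPM in CS/110R, 509.6, 353 and 257 TPM in CS/SO4, and 814, 615 and 443 TPM in CS/CS, against 454, 477 and 329.7 TPM in CS. The libraries of CS overlapped with those of every grafted type except CS/110R, and no grafted type was called against CS at this stage. In CS/CS, mean LAR2 stood at 1.48 times the TPM of CS where ANR stood at 34.6 times.

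At DAF75, the graft types separated for LAR2 as for ANR. It had 26.1, 23.4 and 31.7 TPM in CS/101-14, 26.4, 37.7 and 31.3 TPM in CS/110R, and 11.6, 16.2 and 26.8 TPM in CS/SO4, against 143, 91.5 and 112 TPM in CS. The CS/CS libraries held 413, 380.5 and 444 TPM, with a mean of 413 TPM where it was 624 TPM at DAF45. LAR2 was lower than in CS in CS/101-14 (log2 fold change -1.93 ± 0.17, adjusted p = 3.77e-05), CS/110R (-1.63 ± 0.16, adjusted p = 0.000106) and CS/SO4 (-2.52 ± 0.28, adjusted p = 0.000251). It was higher in CS/CS than in CS (1.83 ± 0.16, adjusted p = 0.00137) and 14.2-fold higher than in the heterografts (3.83 ± 0.24, adjusted p = 2.13e-08). In the 9 heterografted libraries at DAF75, LAR2 was between 11.6 and 37.7 TPM, while CS reached 17.0, 11.01 and 10.98 TPM only at DAF105.

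At DAF105, LAR2 was still higher in CS/CS, with 72.7, 47.2 and 50.8 TPM against 17.0, 11.01 and 10.98 TPM in CS (log2 fold change 2.03 ± 0.24, adjusted p = 0.00132). The 9 heterografted libraries held between 10.2 and 25.4 TPM, all below the CS/CS libraries. None of the heterografts was called against CS. CS/101-14 held 25.4, 21.8 and 23.996 TPM, all above the CS libraries, with a log2 fold change of 0.79 ± 0.19 and an adjusted p of 0.0585.

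The fall of LAR2 came at different steps. From DAF45 to DAF75 it fell in the 3 heterografts (log2 fold changes of DAF75 over DAF45 of -3.81 ± 0.18 for CS/101-14, -4.05 ± 0.12 for CS/110R and -4.34 ± 0.36 for CS/SO4), and also in graft-free CS (-2.07 ± 0.22, adjusted p = 0.000699). In CS/CS the same step was not called (-0.60 ± 0.23, adjusted p = 0.107). From DAF75 to DAF105 it fell in CS/CS (-2.54 ± 0.18, adjusted p = 0.00014), CS (-2.72 ± 0.23, adjusted p = 2.59e-05) and CS/110R (-1.19 ± 0.17, adjusted p = 0.000665). It was not called in CS/101-14 or CS/SO4, where it was already low.

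LAR1, the other leucoanthocyanidin reductase, was scarce, at 0.108 to 2.19 TPM in the 36 libraries outside CS/CS. At DAF45, it had 2.53, 4.81 and 6.75 TPM in CS/CS, against 0.587, 0.327 and 0.503 TPM in CS, with 56, 113 and 146 counts against 14, 8 and 11. The groups did not overlap, and LAR1 was higher in CS/CS (log2 fold change 3.15 ± 0.45, adjusted p = 0.00257). In CS/SO4 it had 1.58, 2.19 and 0.769 TPM and was called higher than in CS (1.64 ± 0.45, adjusted p = 0.0493), a call that was lost without any 1 of the 6 libraries (1.28 to 1.96, adjusted p between 0.0502 and 0.142), with 1 count as the only filter (adjusted p = 0.051) and with the replicate number as a block (adjusted p = 0.0816).

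LAR1 in CS/CS was high again at the last stage. Its mean was 4.70 ± 2.11, 0.699 ± 0.270 and 2.51 ± 1.34 TPM at DAF45, DAF75 and DAF105 (SD, n = 3). It was lower at DAF75 than at DAF45 (log2 fold change -2.73 ± 0.48, adjusted p = 0.0107) and higher at DAF105 than at DAF75 (2.15 ± 0.50, adjusted p = 0.0113). At DAF105, LAR1 had 3.99, 2.15 and 1.39 TPM in CS/CS, against 0.184, 0.181 and 0.149 TPM in CS (3.74 ± 0.49, adjusted p = 0.00197). In CS these were 5, 5 and 4 counts, so its level there is known only roughly. LAR1 passed the count filter in that comparison only through CS/CS.

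The balance of the branches can be read from the TPM of the 3 enzymes within a library. ANR made up 23.3%, 22.1% and 37.8% of their summed TPM in CS/CS at DAF45, against 0.840% to 2.72% in the 12 other libraries of that stage. At DAF105, the share was 19.2%, 18.9% and 28.6% in CS/110R, against 9.99%, 8.82% and 6.82% in CS, at sums of only 14.5 to 21.1 TPM in CS/110R. LAR1 never exceeded 5.21% of the summed TPM of LAR1 and LAR2, and its median share over 45 libraries was 0.646%. These shares are descriptions of transcript levels and were not tested.

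MYBPA1, a MYB that in grapevine switches on ANR and LAR, had the largest difference among the regulators. At DAF45, it had 73.1, 82.8 and 175 TPM in CS/CS, against 1.43, 0.744 and 2.74 TPM in CS. The other 3 grafted types held 1.62 to 11.4 TPM, so no library of another group reached the lowest of CS/CS. MYBPA1 was 60.6-fold higher in CS/CS than in CS (log2 fold change 5.92 ± 0.54, adjusted p = 0.000531) and 15.7-fold higher than in the heterografts (3.97 ± 0.54, adjusted p = 0.000184).

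In the heterografts at DAF45, MYBPA1 had 6.05, 8.20 and 10.51 TPM in CS/SO4, all above CS (log2 fold change 2.32 ± 0.41, adjusted p = 0.0158). This call was lost without CS replicate 1, CS/SO4 replicate 2 or CS/SO4 replicate 3 (log2 fold change 2.11 to 2.33, adjusted p between 0.0577 and 0.0779). In CS/101-14 it had 2.61, 9.86 and 11.4 TPM, with a log2 fold change of almost the same size that was not called (2.33 ± 0.70, adjusted p = 0.185). DESeq2's Wald test called it (adjusted p = 0.0129), as did the fit of all 45 libraries (adjusted p = 0.0018).

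**Figure D2:**
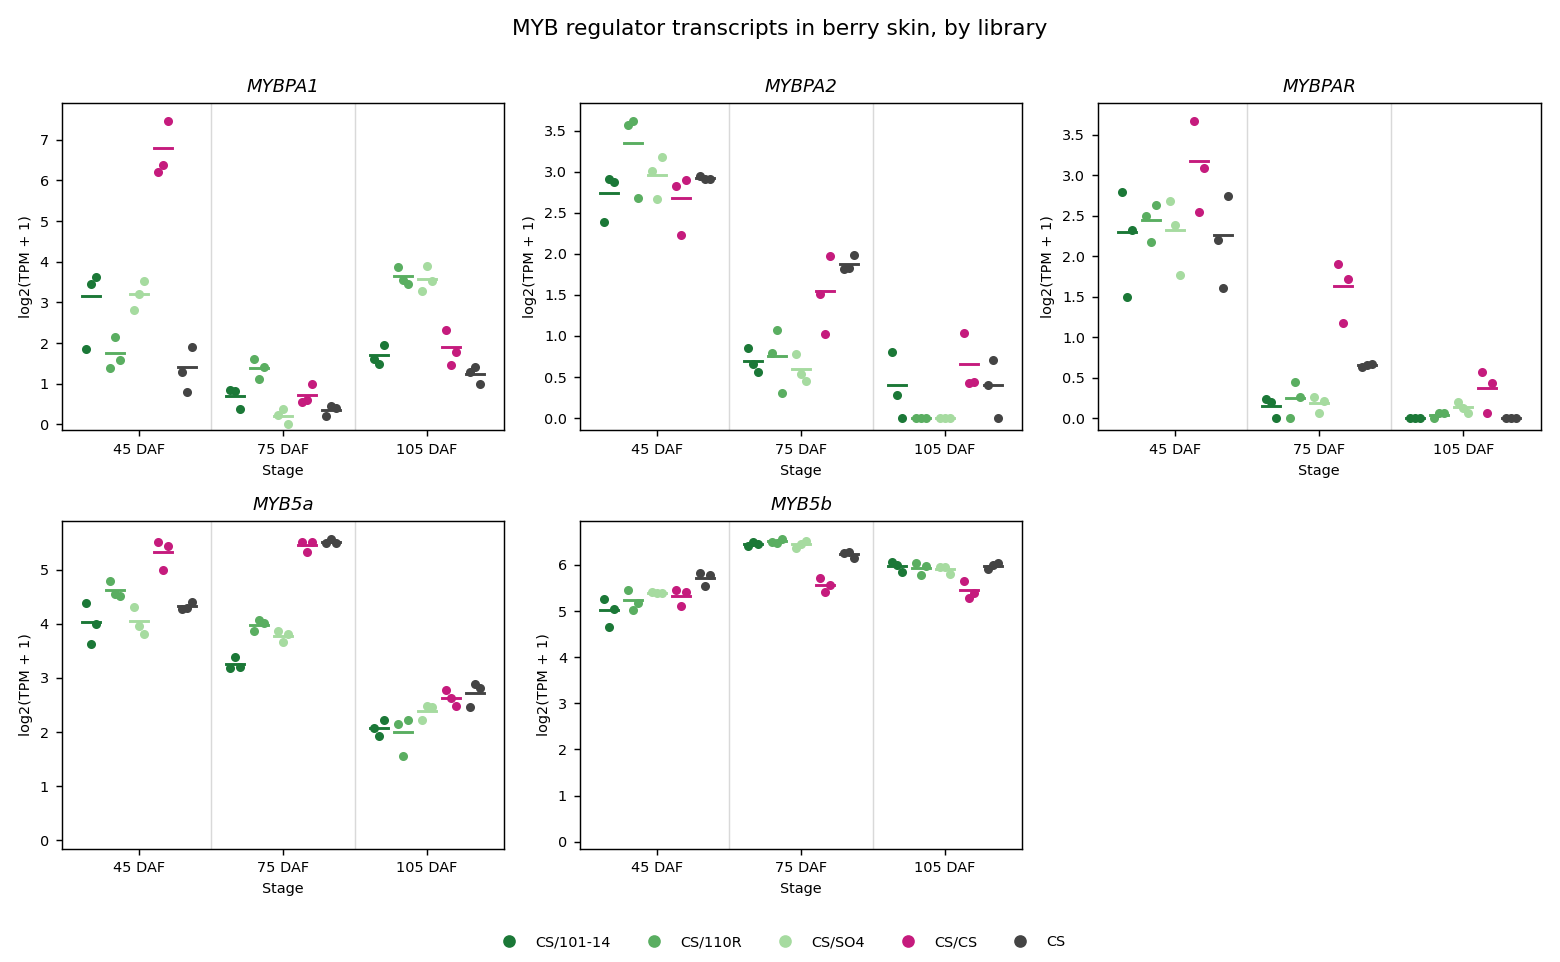
Levels of the 5 MYB regulators as log2(TPM + 1), by stage and graft type; each point is 1 library and each bar is the mean TPM of 3 libraries on the same scale. MYBPA1 stands at 73.1 to 175 TPM in CS/CS at DAF45, MYBPA2 and MYBPAR approach 0 by DAF105, and MYB5a at DAF75 is at least 39.0 TPM in CS/CS and CS and at most 15.7 TPM in the heterografts.

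At the later stages the high level of MYBPA1 in CS/CS was gone. At DAF75, it had 0.461, 0.505 and 0.993 TPM in CS/CS, against 0.144, 0.368 and 0.325 TPM in CS, with no call (log2 fold change 1.18 ± 0.51, adjusted p = 0.104). Counts at this stage were as low as 3 in CS and 0 in CS/SO4, and CS/101-14 and CS/SO4 were not tested. CS/110R held 2.03, 1.18 and 1.68 TPM and was called higher than CS (2.76 ± 0.44, adjusted p = 0.000998).

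At DAF105, MYBPA1 was high on 2 of the rootstocks. It had 13.6, 10.7 and 10.03 TPM in CS/110R and 8.64, 13.9 and 10.4 TPM in CS/SO4, against 1.46, 1.67 and 0.9997 TPM in CS. Both were called (log2 fold changes 2.93 ± 0.21 and 2.97 ± 0.25, adjusted p = 0.000197 and 0.000397). CS/101-14, with 2.05, 1.82 and 2.84 TPM, was not called (0.62 ± 0.28, adjusted p = 0.238), nor was CS/CS with 4.004, 1.75 and 2.44 TPM (0.90 ± 0.36, adjusted p = 0.0859). ANR in CS/110R and CS/SO4 stood at 1.20 to 4.14 TPM at this stage.

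Over the stages, MYBPA1 had its low point at DAF75. It was lower at DAF75 than at DAF45 in every graft type except CS/110R (log2 fold change -0.32 ± 0.38, adjusted p = 0.493), with -7.39 ± 0.48 in CS/CS and -2.68 ± 0.57 in CS. From DAF75 to DAF105 it rose in all 5, with log2 fold changes of 1.98 ± 0.38 in CS/101-14, 2.88 ± 0.23 in CS/110R, 2.39 ± 0.44 in CS/CS and 2.69 ± 0.41 in CS. In CS and CS/SO4 no DAF75 library reached the count filter, so MYBPA1 passed it only through DAF45 or DAF105. Only a lower call from DAF45 and a higher call to DAF105 were open to it there. In CS/SO4, where the DAF75 libraries held 4, 7 and 0 counts, the fitted values were -5.59 ± 0.56 and 6.26 ± 0.47. They were -6.37 and 7.05 without the DAF75 replicate 2.

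MYBPA2, a regulator of the same group whose identifier is next to that of MYBPAR, was between 3.69 and 11.3 TPM in all graft types at DAF45, and none was called against CS. At DAF75, it had 0.815, 0.580 and 0.478 TPM in CS/101-14, 0.727, 1.10 and 0.236 TPM in CS/110R, and 0.712, 0.456 and 0.371 TPM in CS/SO4, against 2.53, 2.54 and 2.97 TPM in CS. No heterograft library overlapped with CS, and all 3 were called lower (log2 fold changes -1.93 ± 0.36, -1.74 ± 0.48 and -2.20 ± 0.39, adjusted p between 0.00183 and 0.0153). These rest on 2 to 9 counts in the heterografts. MYBPA2 passed the count filter there only through the CS libraries, so only a lower call was open to it. CS/CS, with 1.84, 1.03 and 2.93 TPM, overlapped with CS and was not called (-0.52 ± 0.40, adjusted p = 0.32).

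By DAF105, MYBPA2 was near the limit of detection. All 6 libraries of CS/110R and CS/SO4 held 0 counts, which against DAF45 is at least 24.9-fold lower in CS/110R and at least 17.7-fold lower in CS/SO4, at a floor of 3 counts per library. The other graft types held 0 to 10 counts per library, and no graft type was tested against CS. The fall from DAF45 to DAF75 was called in all 5 graft types, with log2 fold changes of -3.68 ± 0.36 to -3.20 ± 0.38 in the heterografts, -1.49 ± 0.42 in CS/CS and -1.48 ± 0.21 in CS. The call in CS/CS was lost in 5 of 6 fits that left out 1 library, that is all but the one without its DAF75 replicate 3 (adjusted p between 0.0513 and 0.119 where lost), and with 1 count as the only filter (adjusted p = 0.0509). The further fall in CS (-2.63 ± 0.64, adjusted p = 0.00656) was -3.53 without its DAF105 replicate 2. For that step MYBPA2 passed the count filter only through DAF75, so only a lower call was open to it.

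MYBPAR, a grapevine MYB regulator of proanthocyanidin synthesis, had 11.7, 4.81 and 7.49 TPM in CS/CS at DAF45, against 3.59, 2.06 and 5.72 TPM in CS. The groups overlapped, and no grafted type was called at this stage. At DAF75, the CS/CS libraries held 2.75, 1.26 and 2.28 TPM, against 0.550, 0.580 and 0.586 TPM in CS, and did not overlap with them (log2 fold change 1.84 ± 0.36, adjusted p = 0.00811). The heterografts held 0 to 0.366 TPM, all below CS. They were called lower in CS/101-14 (-2.15 ± 0.65, adjusted p = 0.0201) and CS/SO4 (-1.86 ± 0.52, adjusted p = 0.017), but not in CS/110R (-1.35 ± 0.73, adjusted p = 0.144). The call in CS/SO4, on 1 to 4 counts, was lost with DESeq2's Wald test (adjusted p = 0.0597). In the heterografts at DAF75 MYBPAR passed the count filter only through the CS libraries, so only a lower call was open to it.

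MYBPAR was lower at DAF75 than at DAF45 in all 5 graft types. The log2 fold change was -5.05 ± 0.73 in CS/101-14, -4.33 ± 0.61 in CS/110R, -4.79 ± 0.52 in CS/SO4, -1.92 ± 0.39 in CS/CS and -2.88 ± 0.39 in CS. In CS/110R it was -5.13 without the DAF75 replicate 2, and in CS/CS the call was lost without its DAF75 replicate 2 (-1.69, adjusted p = 0.0504). At DAF105 all libraries of CS/101-14 and CS held 0 counts. In CS that is at least 3.56-fold lower than at DAF75 and at least 24.6-fold lower than at DAF45. MYBPA2 and MYBPAR carry neighbouring identifiers on 1 scaffold, and how reads shared by similar genes were counted is not given in the sources used here.

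MYB5a, a MYB known to act on several branches of the flavonoid pathway, separated the heterografts from both CS and CS/CS at DAF75. It had 8.13, 9.45 and 8.14 TPM in CS/101-14, 13.5, 15.7 and 15.2 TPM in CS/110R, and 13.5, 11.6 and 13.0 TPM in CS/SO4, against 43.9, 46.3 and 44.0 TPM in CS. CS/CS held 44.3, 39.0 and 44.5 TPM and overlapped with CS, while each heterograft lay far below it. MYB5a was lower than in CS in CS/101-14 (log2 fold change -2.22 ± 0.09, adjusted p = 1.55e-06), CS/110R (-1.35 ± 0.07, adjusted p = 5.96e-06) and CS/SO4 (-1.66 ± 0.09, adjusted p = 1.58e-05), and CS/CS was not called (-0.08 ± 0.08, adjusted p = 0.44). Among the heterografts, the 3 libraries of CS/101-14 were all below those of CS/SO4 and CS/110R.

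At DAF45, MYB5a had 44.4, 31.0 and 42.3 TPM in CS/CS, against 18.4, 18.5 and 20.2 TPM in CS. The groups did not overlap, and the adjusted p was 0.00193, but the log2 fold change of 0.87 ± 0.11 was under the threshold. At DAF105 it was 1.95 to 6.42 TPM throughout. Only CS/110R was called against CS there (-1.01 ± 0.25, adjusted p = 0.0333), and that call was lost without CS replicate 2 or 3 or CS/110R replicate 1 or 2 (log2 fold change between -1.09 and -0.77, adjusted p between 0.0437 and 0.108) and in the fit of all 45 libraries (-0.99). Between DAF45 and DAF75, MYB5a rose in CS (1.04 ± 0.07, adjusted p = 0.000161), and no other graft type was called. Between DAF75 and DAF105 it fell in all 5, with log2 fold changes from -2.71 ± 0.12 in CS/CS to -1.23 ± 0.14 in CS/101-14.

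MYB5b, a close relative of MYB5a that is known to act later in berry development, was the one member without a call in the 12 comparisons with CS. At DAF75 it had 84.5, 89.2 and 86.7 TPM in CS/101-14, 89.3, 87.5 and 93.4 TPM in CS/110R, and 82.2, 86.1 and 90.4 TPM in CS/SO4, against 75.8, 77.0 and 69.9 TPM in CS. The CS/CS libraries held 51.2, 41.8 and 46.3 TPM. All heterografted libraries were above CS, and all CS/CS libraries below it, with log2 fold changes of 0.37 to 0.52 and -0.69 ± 0.09 that passed on adjusted p (0.000455 to 0.00264) and not on size. CS/CS was also below CS at DAF45 (-0.57 ± 0.10, adjusted p = 0.00526) and DAF105 (-0.63 ± 0.11, adjusted p = 0.00516). At DAF45 the heterografts were below CS too, unlike at DAF75. The values were -0.75 ± 0.12 in CS/101-14 (adjusted p = 0.0706), -0.68 ± 0.12 in CS/110R (adjusted p = 0.00786) and -0.37 ± 0.08 in CS/SO4 (adjusted p = 0.0275). Set against the heterografts directly at DAF75, MYB5b was lower in CS/CS (-1.10 ± 0.07, adjusted p = 3.94e-08). It rose from DAF45 to DAF75 in CS/101-14 (1.47 ± 0.11), CS/110R (1.501 ± 0.12) and CS/SO4 (1.09 ± 0.07), and the step was not called in CS/CS (0.25 ± 0.11) or CS (0.33 ± 0.08).

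When the 15 groups were ordered by mean TPM, most neighbours overlapped. Of the 14 pairs of neighbours, 10 overlapped for ANR, 14 for LAR1, 10 for LAR2, 12 for MYBPA1, 13 for MYBPA2, 11 for MYBPAR, 7 for MYB5a and 12 for MYB5b. For ANR, CS/CS at DAF45 and then CS/CS at DAF75 stood above all others without overlap, and the next 5 groups, the remaining 4 of DAF45 and CS at DAF75, overlapped from neighbour to neighbour. For LAR2, the 5 groups of DAF45 and CS/CS at DAF75 headed the order, and CS/SO4 at DAF45, the lowest of them, did not overlap with CS at DAF75, the next.

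The 12 comparisons of a grafted type with CS gave 29 calls in 96 pairs of gene and comparison, of which 81 could be tested, 14 higher and 15 lower. At DAF45, 0 of 8 members were called in CS/101-14, where 0.144% of all transcripts tested were called, and the lowest adjusted p of a member was 0.0706, for MYB5b. The count was 0 of 8 in CS/110R against 11.0% of all transcripts, 2 of 8 in CS/SO4 (LAR1 and MYBPA1) against 5.25%, and 3 of 8 in CS/CS (ANR, LAR1 and MYBPA1) against 18.2%. At DAF75, 5 of the 6 members tested were called in CS/101-14, all lower, where 27.9% of transcripts were called and 16.6% were called lower. In CS/110R, 5 of 8 were called against 24.1%, 4 of them lower against 14.6%, and in CS/SO4 5 of 6 were called against 22.9%, all lower against 14.5%. In the heterografts MYBPA2 and MYBPAR passed the count filter only through the CS libraries, so only a lower call was open to them. MYBPA1 in CS/110R passed it only through CS/110R. LAR1 and MYBPA1 were not tested in CS/101-14 and CS/SO4. In CS/CS, 3 of 8 were called (ANR, LAR2 and MYBPAR) against 15.9%, all higher against 9.10%.

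**Figure D3:**
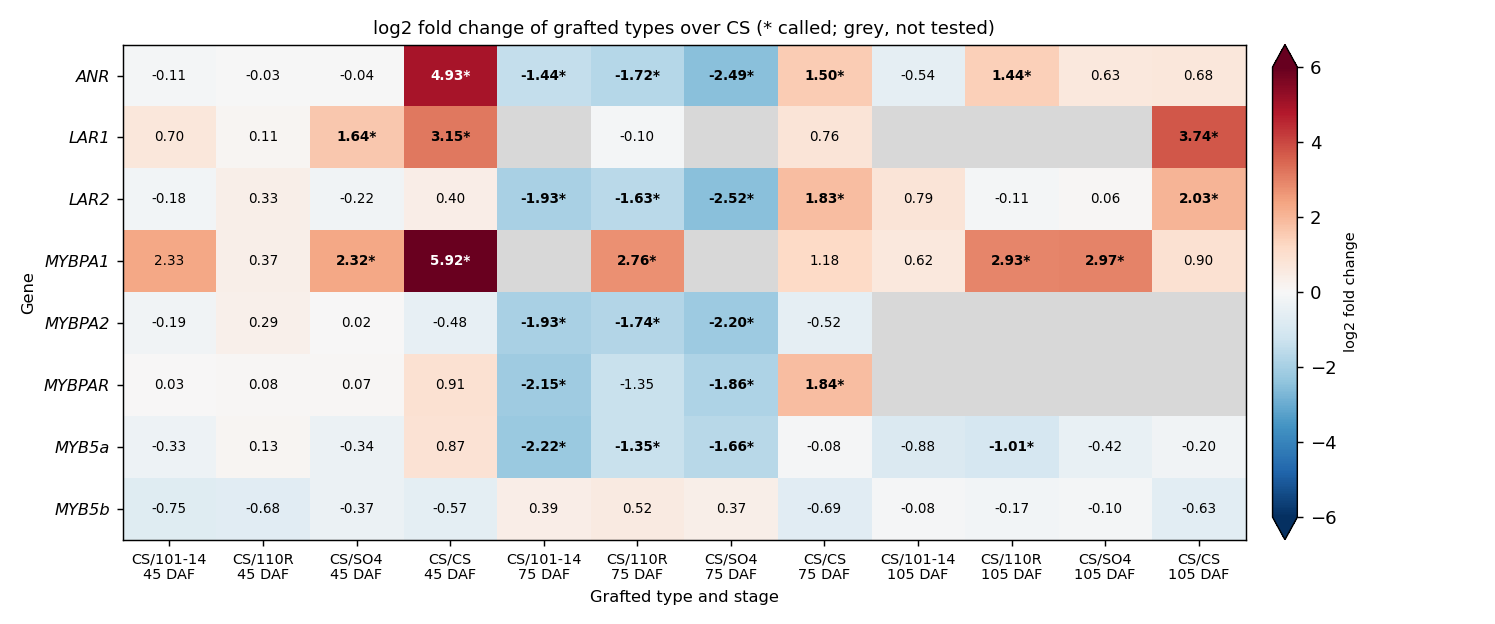
Log2 fold change of each grafted type over CS for the 8 genes (rows) at DAF45, DAF75 and DAF105 (columns), from edgeR; an asterisk and bold type mark a call and grey marks a gene not tested. At DAF75 the heterografts are lower for ANR, LAR2, MYBPA2 and MYB5a, from -2.52 to -1.35, while CS/CS is higher for ANR, LAR2 and MYBPAR.

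At DAF105, the members called against CS were 0 of 5 tested in CS/101-14 (2.11% of all transcripts), 3 of 5 in CS/110R (6.84%), 1 of 5 in CS/SO4 (4.50%) and 2 of 6 in CS/CS (16.5%). MYBPA2 and MYBPAR were too low to be tested at this stage. LAR1 was tested only in CS/CS, where it passed the count filter only through the CS/CS libraries. The 4 comparisons of a stage share the same CS libraries, so their calls are not independent of each other.

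Between successive stages, 50 of 80 pairs were called, 38 lower and 12 higher, of 70 that could be tested. From DAF45 to DAF75, 7 of 8 members were called in CS/101-14 (31.1% of all transcripts), 6 of them lower (18.1% lower among all). The counts were 5 of 8 in CS/110R (31.5%), 4 lower (17.6%), and 7 of 8 in CS/SO4 (29.5%), 6 lower (16.7%). They were 5 of 8 in CS/CS (11.3%), all lower (6.90%), and 5 of 8 in CS (12.2%), 4 lower (6.88%). Some members, among them MYBPA2 and MYBPAR in the heterografts, passed the count filter only through DAF45, so only a lower call was open to them. From DAF75 to DAF105, the counts were 2 of 5 tested in CS/101-14 (9.93%), 4 of 5 in CS/110R (19.4%), 3 of 5 in CS/SO4 (16.6%), 6 of 8 in CS/CS (28.4%) and 6 of 7 in CS (33.6%). For this step MYBPA1 in CS/SO4 and CS passed the filter only through DAF105, so only a higher call was open to it. MYBPA2 in CS and MYBPAR in CS and CS/CS passed only through DAF75, so only a lower call was open to them. LAR1 in CS/CS would not have passed on DAF75 alone.

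**Figure D4:**
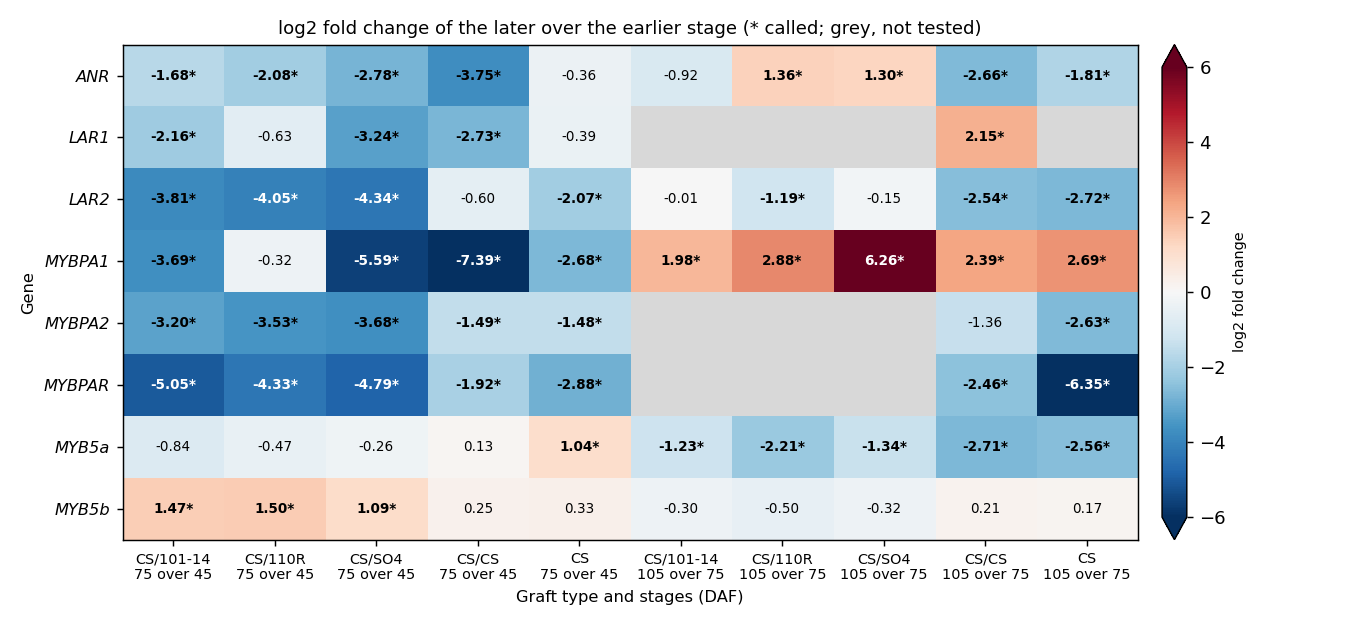
Log2 fold change of the later over the earlier stage within each graft type for the 8 genes (rows), from edgeR; an asterisk and bold type mark a call and grey marks a gene not tested. MYBPA2 and MYBPAR fall from DAF45 to DAF75 in all 5 graft types, MYBPA1 rises from DAF75 to DAF105 in all 5, and MYB5b rises from DAF45 to DAF75 in the heterografts. In the heterografts MYBPA2 and MYBPAR passed the count filter for that fall only through DAF45. In CS and CS/SO4 MYBPA1 passed it for that rise only through DAF105.

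The 9 heterografted libraries were also set against the 6 from CS and CS/CS together. At DAF75, 6 of 8 members were called (29.0% of all transcripts), all lower (17.9%), with log2 fold changes of -3.18 ± 0.36 for LAR2, -2.96 ± 0.57 for MYBPAR, -2.77 ± 0.33 for ANR, -1.71 ± 0.31 for MYBPA2, -1.67 ± 0.15 for MYB5a and -1.16 ± 0.36 for LAR1. The call of LAR1 was lost without CS/CS replicate 2 (-0.99, adjusted p = 0.0296). LAR1, MYBPA2 and MYBPAR passed the count filter only through the CS and CS/CS libraries, so only a lower call was open to them. At DAF45, 2 of 8 were called (3.66%), ANR (-4.01 ± 0.74, adjusted p = 0.00773) and MYBPA1 (-3.01 ± 0.92, adjusted p = 0.0468). For both genes the CS libraries were no higher than the highest heterograft library, and only CS/CS stood above. With each graft type fitted as a group of its own, they were -2.50 and -1.26. The call of MYBPA1 was kept only without CS/101-14 replicate 2 or without 1 of the CS libraries, and was lost in the other 11 fits (adjusted p between 0.0594 and 0.155, the highest without CS/CS replicate 3, where the log2 fold change was -2.29), with 1 count as the only filter (adjusted p = 0.0551) and with the replicate block (adjusted p = 0.0662).

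At DAF105, 2 of 6 members tested were called between these sets (9.30%), MYBPA1 higher in the heterografts (log2 fold change 1.98 ± 0.49, adjusted p = 0.0112) and LAR1 lower (-2.23 ± 0.63, adjusted p = 0.0207). The higher MYBPA1 was that of CS/110R and CS/SO4, at 8.64 to 13.9 TPM, and not of CS/101-14. LAR1 passed the count filter there only through CS/CS, so only a lower call was open to it. The call of LAR1 was lost without CS/CS replicate 1 (-1.52, adjusted p = 0.0944) or replicate 2 (-2.04, adjusted p = 0.055), and its value was -1.33 with each graft type as a group of its own.

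CS/CS was compared with the heterografts at each stage as well. At DAF45, 3 of 8 members were called (15.5%), ANR (log2 fold change 4.96 ± 0.16), MYBPA1 (3.97 ± 0.54) and LAR1 (2.16 ± 0.42, adjusted p = 0.00191), all higher in CS/CS. At DAF75, 6 of the 7 tested were called (34.3%), 5 of them higher (19.3%). These were LAR2 (log2 fold change 3.83 ± 0.24), MYBPAR (3.61 ± 0.55), ANR (3.34 ± 0.25), MYB5a (1.64 ± 0.19) and LAR1 (1.51 ± 0.41), with MYB5b lower. MYBPAR passed the count filter here only through CS/CS, and LAR1 would not have passed it without the CS/CS libraries. At DAF105, LAR1 (3.11 ± 0.36) and LAR2 (1.73 ± 0.23) were called among 6 tested (18.6%). LAR1 passed the count filter at this stage only through CS/CS, so only a higher call was open to it.

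Whether the difference between the heterografts and the pooled CS and CS/CS set changed with the stage was tested as an interaction. Between DAF75 and DAF45 it differed for 6 of 8 members (23.0% of all transcripts), with a difference of log2 fold changes of -2.98 ± 0.43 for LAR2 (adjusted p = 4.26e-06), -2.00 ± 0.37 for MYBPA2, -2.50 ± 0.62 for MYBPAR, -1.03 ± 0.25 for MYB5a, 1.05 ± 0.19 for MYB5b and 3.996 ± 1.25 for MYBPA1. That of MYBPA1 was 1.83 with each graft type as a group of its own and 3.26 without CS/CS replicate 3 of DAF45. Between DAF75 and DAF105 it differed for 3 of 8 (19.1%), ANR (-3.13 ± 0.53), LAR2 (-2.15 ± 0.54) and MYB5a (-1.04 ± 0.23). The values of MYB5a and MYB5b sit at the threshold of size. Between DAF75 and DAF45, MYB5a was -0.998 to -0.94 without CS replicate 1, 2 or 3 or CS/110R replicate 1, 2 or 3 of DAF45 or CS/101-14 replicate 1, 2 or 3 of DAF75, and -0.99 with DESeq2 or the size factors of RLE. MYB5b was 0.96 to 0.99 without CS replicate 1 or 3 of DAF45 or CS/CS replicate 1, 2 or 3 of DAF75. Between DAF75 and DAF105, MYB5a was -0.997 to -0.97 without CS/101-14 replicate 1, 2 or 3 of DAF75 or CS/CS replicate 3 or CS/SO4 replicate 2 or 3 of DAF105.

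The patterns of the members across the 15 group means were compared by Pearson's r of log2(TPM + 1), a description over groups that share stages. LAR2 was most like MYBPAR (r = 0.95) and MYBPA2 (r = 0.94), and MYBPA2 was like MYBPAR (r = 0.93). With the mean of each stage subtracted, an alternative added after the data were seen, these were 0.85, 0.78 and 0.45. With CS/CS at DAF45 left out instead, they were 0.96, 0.94 and 0.96. In the list of 17262 other transcripts ordered by likeness, LAR2 stood at place 56 for MYBPAR and 82 for MYBPA2. In the list ordered by likeness to LAR2 itself, MYBPAR stood at place 347 and MYBPA2 at 478.

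**Figure D5:**
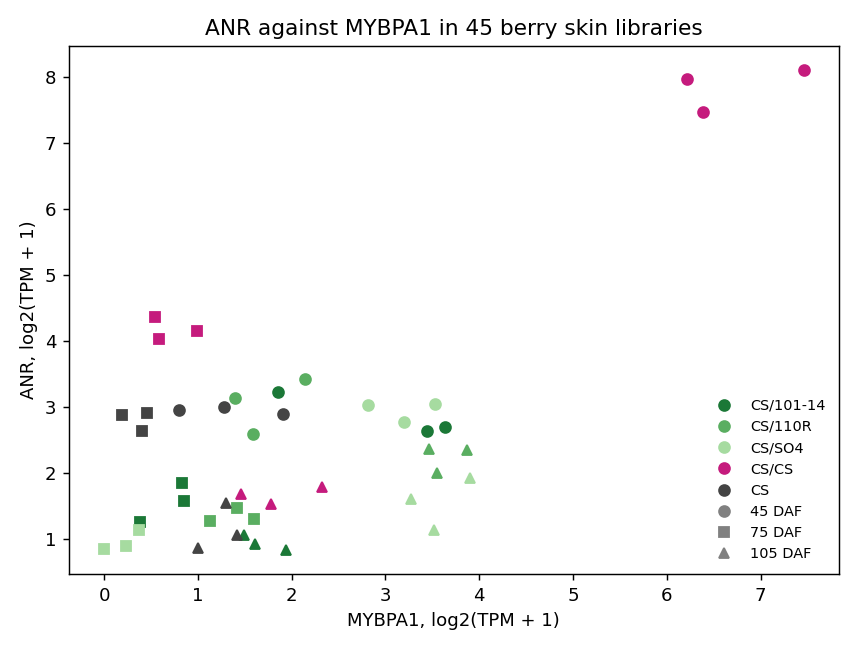
ANR against MYBPA1 as log2(TPM + 1) in 45 libraries, with colour for the graft type and shape for the stage. The 3 CS/CS libraries of DAF45 stand alone at the upper right, and the other 42 libraries hold at most 19.5 TPM of ANR and 13.9 TPM of MYBPA1.

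ANR and MYBPA1 had r = 0.66 across the 15 group means, and 0.08 once CS/CS at DAF45 was left out, likewise an alternative added after the data were seen. With the mean of each stage subtracted instead, r was 0.73. For ANR and LAR1, r was 0.74, 0.33 without CS/CS at DAF45, and 0.70 with stage means subtracted. Among the regulators, MYBPAR had the highest r with ANR (0.80, and 0.79 without CS/CS at DAF45), but it stood only at place 895 in the list for ANR, and ANR at place 2700 in that for MYBPAR. MYB5b ran against the enzymes, with r = -0.55 for ANR, -0.62 for LAR1 and -0.73 for LAR2.

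Outside the members, the transcript most like ANR was VIT_12s0059g01640 (r = 0.97), with 26.8 ± 17.3 TPM in CS/CS at DAF45, against 1.497 ± 0.370 TPM in CS. The most like LAR1 was VIT_02s0025g00240 (r = 0.97), the most like LAR2 was VIT_07s0005g02480 (r = 0.99) and the most like MYBPA1 was VIT_13s0064g00770 (r = 0.87). VIT_07s0005g02480 had 51.8 ± 11.9 TPM in CS/CS at DAF75, against 7.95 ± 2.83 TPM in CS. The sources used here pair none of these identifiers with a gene name.

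The study's primer table gives 8 transcripts names of phenylpropanoid and flavonoid enzymes, unchecked here, and at DAF75 4 of the 7 tested were called higher and 1 lower in each heterograft against CS. The one of these named F3H (flavanone 3-hydroxylase, which acts ahead of both the anthocyanin and the proanthocyanidin branch) was higher, with log2 fold changes of 1.77 for CS/101-14, 1.86 for CS/110R and 1.29 for CS/SO4. In the heterografts the median log2 fold change of the 7 was between 1.29 and 1.86, and these medians are the F3H values just given. In those comparisons the median of the members tested was between -2.03 and -1.35 and that of all transcripts between -0.01 and 0.01. In CS/CS, 1 of the 7 tested was called higher and 2 lower (15.9% of all transcripts called), with a median of -0.63. The primers were made for genes that the study had picked as differing in these same libraries. Calls in this list, and the gap between its median and that of the members, can therefore reflect that choice. They are no independent evidence of a difference between the branches.

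A further list of 20 identifiers was chosen for the flavonoid pathway and its regulators, 1 of them the F3H just given. No source used here pairs the others with names, so they are given as counts alone. At DAF75 all 20 were tested, and 11 were called higher and 2 lower in CS/101-14 against CS (27.9% of all transcripts called, median log2 fold change of the list 1.74). The counts were 13 higher and 2 lower in CS/110R (24.1%, median 1.94) and 11 higher and 2 lower in CS/SO4 (22.9%, median 1.23). In CS/CS, 3 were higher and 1 lower among 17 tested (15.9%, median 0.28).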

How the data were processed

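RNA-seq of berry skin was analysed for 5 graft types at DAF45, DAF75 and DAF105, as 15 groups of 3 libraries. Groups were taken from the sample titles and, for CS/CS, a note under a supplementary table. Per the methods, the authors used fastp for read filtering, HISAT2 for alignment to the 12X genome of V. vinifera, StringTie for assembly and HTSeq for counting; their versions are not given in the sources used here. The deposited expected counts are not normalized. Of the members' counts, 358 of 360 are exactly whole, and which tool gave the others is not stated in the sources used here. They were rounded to whole numbers for the tests. TPM as deposited is scaled by transcript length and library total.

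Tests used R 4.3.3 with edgeR 4.0.16 (quasi-likelihood, TMM) on transcripts reaching 10 counts in 3 or more libraries of the comparison, with p adjusted over all of them. The code was tested on simulated data. Lower bounds use a floor of 3 counts. Figures were drawn with matplotlib. The alternatives were DESeq2 1.42.0, RLE size factors, other filters, one fit of all 45 libraries, separate graft types, the replicate number as a block, adjusted p alone and leaving out each library.

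The members, lists and tests were chosen with earlier results of these data known. All 8 members are named, with 1 most alike transcript for ANR, LAR1, LAR2 and MYBPA1, from transcripts averaging 1 TPM or more. Identifiers were not found in the gene table at hand (0 of 29958), so the members' names are those of the rule, primer-table names are the study's, both unchecked, a further flavonoid list is given by counts, and no sequence is shown. Each column of the tables was assigned to a sample.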

Additional observations from a re-analysis of the deposited data

Results flagged for a closer look

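The difference between the heterografts and the pooled CS and CS/CS set changed with the stage for 9 pairs of gene and stages, by an interaction test of the difference itself. Between DAF75 and DAF45, the difference of the log2 fold changes was -2.98 for LAR2, 3.996 for MYBPA1, -2.00 for MYBPA2, -2.50 for MYBPAR, -1.03 for MYB5a and 1.05 for MYB5b. Between DAF75 and DAF105, it was -3.13 for ANR, -2.15 for LAR2 and -1.04 for MYB5a. For MYBPA1, the DAF45 libraries of CS/CS held 73.1, 82.8 and 175 TPM, against 1.43, 0.744 and 2.74 TPM in CS. Single outlying libraries were looked for only by leaving out each library in turn. Over those fits the value of MYBPA1 between DAF75 and DAF45 was 3.26 to 4.34, the lowest without CS/CS replicate 3 of DAF45.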

How the results depend on the processing

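Of the 109 calls, 73 were tested and held without any 1 library, 13 were lost without some library and 23 could not be tested without some library, because the filter needs 3 libraries. Under the other settings 6 calls were lost where the gene was still tested, all given in the report, and 0 called values changed sign. Calls that the filter of a setting left untested are not among these 6, but they lower the totals of that setting. The totals of calls kept within 1.5 times under every setting. They were 29 for grafted types against CS (24 to 32 with 1 library left out), 50 between stages (46 to 50), 10 for heterografts against CS and CS/CS (9 to 11), 11 for CS/CS against heterografts (9 to 13) and 9 interactions (7 to 9). Under the other settings, adjusted p alone among them, they were 25 to 39, 45 to 56, 7 to 13, 9 to 16 and 8 to 10. Outside the calls, 9 pairs of gene and comparison were newly called under some setting other than adjusted p alone, among them MYB5a for CS/CS against heterografts at DAF45, which stood at 0.996.

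Samples were not treated as paired by replicate number, since in 0 of 22 comparisons did every pair correlate above 0.1. Single correlations ran from -0.33 to 0.48. The study names randomized block designs for the berry collection, and this rule cannot exclude pairing. With the replicate number as a block the totals were 28, 50, 9, 11 and 9. Low counts limit LAR1, MYBPA2 and MYBPAR, and MYBPA1 at DAF75.

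The sign changed for 22 uncalled pairs, and the cause was not tested. With the fit of all 45 libraries, the log2 fold change was 0.0088 for ANR in CS/110R against CS at DAF45, 0.0304 for MYBPA1 and CS/CS against heterografts at DAF75, 0.19 for ANR at DAF105, and, for the interaction of DAF75 and DAF45, -0.15 for ANR and -0.47 for LAR1. With graft types as separate groups, the last 4 were 0.0432, 0.17, -0.13 and -0.45. MYB5b in CS/CS against heterografts at DAF45 was 0.0162 with RLE, 0.0157 with DESeq2 and 0.0169 at a mean of at least 1 TPM, and LAR2 between DAF105 and DAF75 in CS/101-14 was 0.000333 with the replicate block.

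With 1 library left out, the ranges against CS at DAF45 were -0.37 to 0.0342 for MYBPA2 and -0.32 to 0.41 for MYBPAR in CS/101-14. In CS/110R they were -0.27 to 0.20 for ANR, -0.062 to 0.30 for LAR1, -0.0023 to 0.90 for MYBPA1 and -0.20 to 0.44 for MYBPAR, and in CS/SO4 -0.10 to 0.0584 for ANR, -0.10 to 0.15 for MYBPA2 and -0.19 to 0.45 for MYBPAR. At DAF75, LAR1 in CS/110R was -0.36 to 0.17. At DAF105, MYB5b in CS/101-14 was -0.15 to 0.0042, and LAR2 was -0.30 to 0.15 in CS/110R and -0.0617 to 0.33 in CS/SO4. Between stages, LAR2 of DAF105 over DAF75 was -0.12 to 0.12 in CS/101-14 and -0.38 to 0.19 in CS/SO4, and MYBPA1 of DAF75 over DAF45 in CS/110R was -0.57 to 0.0466. For CS/CS against heterografts, MYB5b was -0.0594 to 0.0663 at DAF45 and ANR -0.15 to 0.13 at DAF105. The interactions were -0.34 to 0.42 for LAR1 between DAF75 and DAF45 and -0.24 to 1.76 for MYBPA2 between DAF75 and DAF105.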
